A study of Mus musculus with 41 samples.

Results

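The genes described here encode the proteins of the mouse cytosolic ribosome. They were taken by name: every gene called Rpl or Rps followed by digits and nothing else, or by one of the letters a, x or l, together with Rplp0, Rplp1, Rplp2 and Rpsa. Pseudogenes were left out. The rule found 83 of the 41069 named genes with a TPM value, 51 of the large subunit and 32 of the small subunit. TPM, a transcript's share of all transcripts scaled to a fixed total, is a level per unit of exonic length. Levels of different genes can be set side by side only as far as the annotated length fits the RNA made. That length was 322 bases for Rps29 and 5136 for Rps15a. The rule used names and no measured value.

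Polyadenylated RNA was sequenced in bulk from 6 subsets of B cells sorted from the spleen, to ask what each of them loses or gains when MEK1, a kinase that activates ERK, is deleted and its relative MEK2 has a single gene copy. The mutant mice, labelled 1Mek2, were Mek1 flox/flox and Mek2+/- and carried Vav1-iCre, a transgene that acts throughout the blood lineages and not in B cells alone. Wild-type mice are labelled wt, and all mice were 3 to 5 months old. There were 3 Immature libraries labelled 1Mek2 and 3 wt (B220+CD93+CD138-), 4 and 4 of germinal center cells (GC; GL7+FAS+), 3 and 3 of age-associated B cells (ABC; gate not given in the labels), 4 and 4 Follicular (CD21+CD23+), 3 and 3 MarginalZone (CD21+CD23-), and 3 and 3 Plasma (B220+CD138+), 40 libraries from 16 animals in all. An Immature library labelled 1Mek2 whose column name reads Mek1ff was left out of the 41. A GC library labelled wt, replicate 4, came from the same animal and has the same mark in its name; it was kept as wt, and values without it are given where they matter.

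The targeted genes did not check the genotype label in every subset. Map2k1, the gene of MEK1, was lower without overlap in the MarginalZone libraries labelled 1Mek2 (16.0 to 44.6 TPM, against 55.5 to 214 in wt) and in the Immature ones (54.3 to 141, against 144 to 173), but overlapped between genotypes in the other subsets. Map2k2, the gene of MEK2, which the label gives in a single copy, was higher without overlap in the MarginalZone libraries labelled 1Mek2 (120 to 196 TPM, against 46.5 to 98.0 in wt). It averaged 181 TPM in 1Mek2 and 92.8 TPM in wt ABC libraries, and 101 and 94.0 TPM in Follicular ones, with overlap there and in the remaining subsets. The name 1Mek2 below is therefore that of the label. Exon reads per library ran from 7897848 to 29204625. The ABC, Follicular, MarginalZone and Plasma libraries fell into 2 types by their values, which the labels do not give: 7 of type 1 (ABC 1Mek2 replicate 3, Follicular 1Mek2 replicate 2 and wt replicate 4, MarginalZone wt replicate 2, Plasma 1Mek2 replicate 2 and wt replicates 1 and 3) and 19 of type 2. The Immature and GC libraries lay with type 1 on the score by which the types were told apart (3.88 to 5.83, against 4.54 to 5.71 in type 1 and -3.59 to 1.97 in type 2). Each comparison below of Immature or GC with Follicular libraries is thus mostly one against type 2. The MarginalZone groups differ in type as well, so their Map2k1 and Map2k2 values do not check the genotype apart from type. Within Follicular libraries, which hold both types, Map2k1 ran from 17.4 to 187 TPM in 1Mek2 and from 41.0 to 203 TPM in wt. The listed B cell marker genes together summed to 7600 to 14972 TPM in all libraries but the wt ABC ones (2000 to 4176) and the Plasma ones (850.2 to 1984).

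A ribosome is built from a small subunit, which reads the mRNA, and a large subunit, which joins the amino acids, and each protein goes into it in a fixed proportion. Many of the mRNAs for these proteins start with a run of pyrimidines, the 5′ TOP motif, through which mTOR signalling and the RNA-binding protein LARP1 control their translation. The MEK and ERK kinases act on the ribosome through RSK kinases, which phosphorylate the product of Rps6, and activated B cells and plasma cells are known for high rates of protein synthesis.

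The start of the transcript carries that motif, so 8 starts are shown from RefSeq for the older build GRCm38.p6, each 15 bases before and 15 bases from the annotated start, on the gene's strand. Capitals mark a C with at least 4 further pyrimidines that begins within 5 bases of the start. They were picked for their place in the results below.
Rps6, chr4:86857353-86857382, minus strand: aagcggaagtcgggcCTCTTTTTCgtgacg
Rpl15, chr14:18270972-18271001, minus strand: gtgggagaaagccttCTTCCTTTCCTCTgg
Rpl28, chr7:4792950-4792979, plus strand: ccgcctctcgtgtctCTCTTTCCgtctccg
Rps10, chr17:27635230-27635259, minus strand: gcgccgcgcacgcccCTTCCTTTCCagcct
Rpl38, chr11:114668565-114668594, plus strand: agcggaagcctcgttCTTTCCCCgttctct
Rpl4, chr9:64173372-64173401, plus strand: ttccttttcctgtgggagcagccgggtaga
Rps12, chr10:23787195-23787224, minus strand: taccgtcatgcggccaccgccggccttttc
Rplp0, chr5:115559452-115559481, plus strand: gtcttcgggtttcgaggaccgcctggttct
Of these, Rpl4, Rps12 and Rplp0 have no such run at the annotated start; a run that starts further off is not counted. Among the 61 genes with a promoter entry, 29 (47.5%) had the run, against 21.2% of 27025 genes. CCGGAAG, the core bound by ETS factors, stood on either strand of the 300-base promoter window of 25 of them (41.0%), against 9.93% of all. CACGTG, the E-box that MYC can bind, stood in 9.84%, against 8.09% of all, and TATAAA in 11.5%, against 15.7%. A match is a description of these letters and not a site shown to act here.

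Of the 83 genes, 78 averaged at least 10 TPM over the 40 libraries. Rps14 averaged 4351 TPM, Rpl35 4123, Rps27 2806, Rpl32 2794 and Rps18 2755, the highest of the 83. The 5 under 10 TPM were all copies whose name ends in l: Rpl6l (3.44 TPM), Rpl39l (1.18), Rps4l (0.986), Rpl3l (0.636) and Rpl10l (0.027). Rpl10l was listed at 0 TPM in 34 of the 40 libraries. Rpl3l is known from heart and skeletal muscle, and Rpl10l and Rpl39l from testis. Their partners were at full level, with means of 949 TPM for Rpl10, 624 for Rpl3, 364 for Rpl39 and 480 for Rps4x, so nearly all RNA of each pair came from the common gene. The copy Rps27l, a p53 target, had a higher level than the other copies (mean 83.4 TPM, from 0.998 to 192 over the libraries), far below its partner Rps27. Reads shared by near-identical copies and pseudogenes may be split between them, so values of the l copies are uncertain.

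The genes followed one another unequally. For each of the 78, the correlation of log2(TPM + 1) with the median of the others over the 40 libraries, a description in which all points share the scaling of their library, had a median of 0.683. It was above 0.8 for 23 genes and below 0.5 for 12. Rpl23a (0.934), Rpl23 (0.928), Rpl27a (0.920) and Rpl12 (0.915) were among the closest to the rest. Rpl4 (0.282), Rps12 (0.327), Rpl38 (0.339) and Rpl7 (0.350) lay farthest from it. Those 4 were not scarce, with means from 393 TPM for Rps12 to 1628 TPM for Rpl4.

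**Figure D1:**
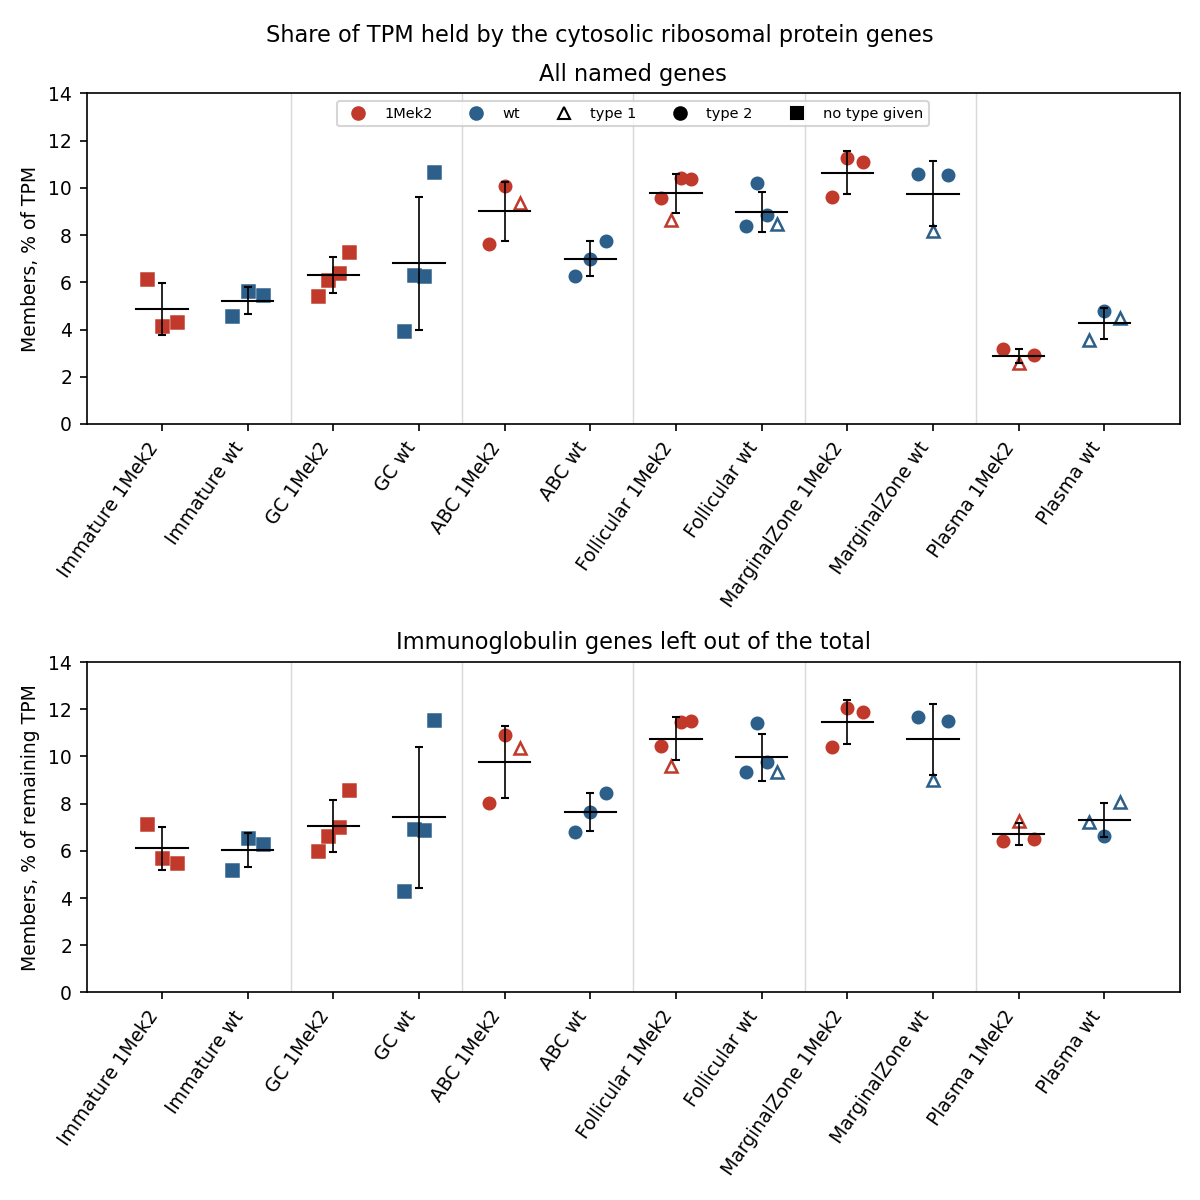
Share of all TPM taken by the 83 ribosomal protein genes in each library (percent, vertical axis), by subset and genotype label, with type 1 libraries marked. Plasma libraries are lowest at 2.59 to 4.79%, and Follicular (8.38 to 10.4%) and MarginalZone libraries (8.17 to 11.2%) are highest.

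The share of all TPM that the 83 genes took differed most between subsets. It ran from 2.59 to 4.79% in Plasma libraries (median 3.36%), 4.15 to 6.14% in Immature libraries (median 5.02%), 3.94 to 10.7% in GC libraries (6.29%), 6.28 to 10.1% in ABC libraries (7.68%), 8.17 to 11.2% in MarginalZone (10.6%) and 8.38 to 10.4% in Follicular libraries (9.22%). The Plasma and Immature ranges did not reach the Follicular one. Immunoglobulin genes took 27.7 to 63.5% of TPM in Plasma libraries and 8.31 to 10.2% in Follicular ones. With those genes removed from the total, the ribosomal share of Plasma libraries was 6.42 to 8.07%, against 9.34 to 11.5% in Follicular libraries, and that of Immature libraries 5.20 to 7.15%. As a share of exon reads, not corrected for length, Plasma libraries held 2.27 to 2.91%, against 3.52 to 5.10% in Follicular. As a share of gene-span reads, introns included, the ranges overlapped: Plasma libraries held 2.28 to 3.08%, Immature libraries 1.69 to 2.31% and Follicular ones 2.21 to 4.19%. In bulk RNA, fewer cells of a type and less RNA per cell cannot be told apart.

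The subset with the highest mean level was Follicular for 34 of the 78 genes, MarginalZone for 29, GC for 9 and ABC for 6. The lowest was Plasma for 63, ABC for 11 and Immature for 4. Large-subunit genes summed to 1.30 to 1.63 times the TPM of small-subunit genes in Plasma libraries, 1.31 to 1.46 times in Immature libraries, 1.25 to 1.44 in GC libraries, 0.996 to 1.35 in ABC libraries, 1.01 to 1.39 in MarginalZone and 1.15 to 1.40 in Follicular. These ranges overlap. Among the comparisons with Follicular libraries below, the medians of large and small subunit genes were farthest apart for 1Mek2 MarginalZone libraries, at -0.30 and -0.07 on the log2 scale.

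On the TPM scale, Plasma libraries had lower levels of most ribosomal protein genes than Follicular ones in both genotypes. Far fewer passed the test when immunoglobulin genes were removed from the total or when reads were tested in place of TPM, as given below. Calls here and below are limma tests on log2(TPM + 1) with a Benjamini-Hochberg adjusted p under 0.05 over all genes with enough TPM. Fold changes are on that scale, with their standard errors. Among libraries labelled 1Mek2, 77 of 80 genes tested were lower and 0 higher, against 40.2% of all genes called in either direction and 30.5% called lower, with a median log2 fold change of -1.75 against -0.88 over all genes. Among wt libraries, 54 of 81 were lower and 0 higher, against 30.6% of all genes called and 19.9% called lower, with a median of -1.09 against -0.63. All 54 wt calls were also called in 1Mek2 libraries, in which they make up 70.1% of the calls. Leaving out 1 library moved the wt count most, to 22 without Plasma replicate 1, 24 without Plasma replicate 3, and 32, 23 and 27 without Follicular replicates 1, 2 and 3.

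Rps12, a protein of the small subunit, had 99.7, 44.8 and 72.2 TPM in the 1Mek2 Plasma libraries and 384, 212, 445 and 452 TPM in the 1Mek2 Follicular ones. Every Plasma library was below every Follicular one, and the log2 fold change was -2.37 ± 0.42 (limma, adjusted p = 0.00342). In wt, Rps12 had 58.5, 128 and 108 TPM in Plasma and 375, 487, 600 and 159 TPM in Follicular libraries, a log2 fold change of -1.95 ± 0.50 (limma, adjusted p = 0.0174). The lowest wt Follicular library, 159 TPM, is the type 1 one, and it still exceeded all Plasma libraries. Rpl12, a neighbour of the stalk of the large subunit, had 222, 186 and 181 TPM in 1Mek2 Plasma libraries and 859, 969, 1132 and 1061 TPM in Follicular ones. The groups are narrow and far apart, with a log2 fold change of -2.35 ± 0.27 (limma, adjusted p = 0.000424). Rpl39, a very short protein at the exit tunnel of the large subunit, averaged 76.2 ± 25.2 TPM in 1Mek2 Plasma libraries (SD, n = 3) and 399 ± 140 TPM in Follicular ones (n = 4), a log2 fold change of -2.37 ± 0.40 (limma, adjusted p = 0.00297). In wt the most lowered genes after Rps12 were Rps10, a protein near the mRNA entry site (240 ± 62.3 TPM against 860 ± 235, log2 fold change -1.83 ± 0.33), and Rps15 (633 ± 190 TPM against 2239 ± 612, -1.81 ± 0.34), with limma adjusted p of 0.00342 and 0.00403.

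The products of the stalk genes Rplp0, Rplp1 and Rplp2 recruit elongation factors. Rplp0 had 527, 614 and 589 TPM in 1Mek2 Plasma libraries and 1100, 1567, 1250 and 1192 TPM in Follicular ones, and 650, 954 and 833 TPM against 1021, 902, 793 and 1247 TPM in wt. The 1Mek2 groups were apart, while the wt groups overlapped. Rplp2 had 508, 304 and 506 TPM in 1Mek2 Plasma libraries and 1329, 1008, 1842 and 2069.8 TPM in Follicular ones. Rpsa, of the small subunit and also known as a laminin receptor, had 223, 153 and 171 TPM in 1Mek2 Plasma libraries, against 1066, 701, 710.4 and 632 TPM in Follicular ones. Neither of them overlapped between those groups. Markers of other cells moved with these results. T cell markers summed to 1062 to 6435 TPM in Plasma libraries and 55.6 to 360 TPM in Follicular ones, neutrophil markers to 2254 to 12796 against 0 to 104, and plasma cell markers to 7259 to 10340 against 33.1 to 567. All 7 T cell and all 7 neutrophil markers on the lists were called higher in both genotypes. Their part in the ribosomal result was not tested. The count depended on the scaling: 5 of the genes were called lower in wt Plasma libraries when immunoglobulin genes were removed from the total, and 22 in 1Mek2. The shares of all genes called given above belong to the full total, and none is given here for that scaling.

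**Figure D2:**
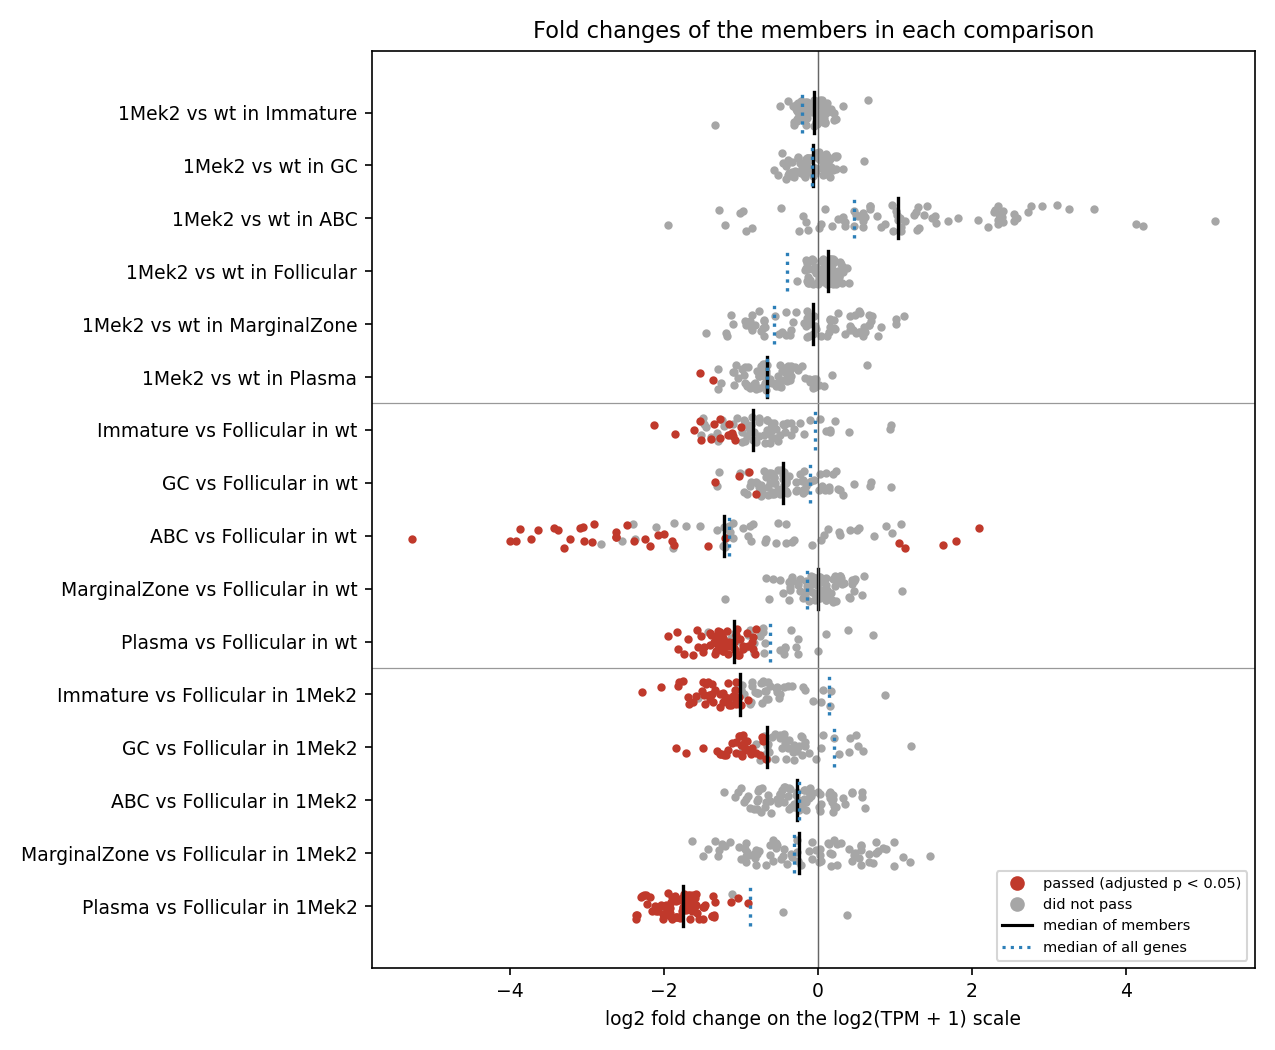
Log2 fold change on the log2(TPM + 1) scale for every tested ribosomal protein gene (1 point each, red where it passed the test, with lines at the medians of these genes and of all genes), in the comparisons of 1Mek2 with wt and of each subset with Follicular libraries. The Plasma against Follicular clouds lie below 0, with medians of -1.75 in 1Mek2 and -1.09 in wt, and the ABC cloud is the widest between genotypes, from -1.95 to 5.15.

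Immature cells also had lower levels. Among libraries labelled 1Mek2, 39 of 80 genes were lower than in Follicular libraries and 0 higher, against 13.2% of all genes called and 4.53% called lower, with a median log2 fold change of -1.02 against 0.14 over all genes. Among wt libraries, 16 of 80 were lower and 0 higher, against 2.52% of all genes called and 1.05% called lower, with a median of -0.84 against -0.04. Of the calls, 15 were shared, which is 93.8% of the wt calls and 38.5% of the 1Mek2 calls. The wt count rested on every library: it was 60 without the type 1 Follicular library, replicate 4, and 0 without any single one of the other 6. In 1Mek2 it was 1 and 2 without Immature replicates 3 and 4, and 8 without either of Follicular replicates 3 and 4. Rps12 led both. It had 91.4, 55.1 and 76.0 TPM in the Immature 1Mek2 libraries, all below the Follicular values given above, with a log2 fold change of -2.29 ± 0.37 (limma, adjusted p = 0.00742). In wt it had 50.5, 115 and 94.99 TPM, again all below, with -2.13 ± 0.47 and a limma adjusted p of 0.05 after rounding, just under the threshold. Rpl36, of the large subunit, averaged 214 ± 59.2 TPM in 1Mek2 Immature libraries and 877 ± 194 TPM in Follicular ones (-2.04 ± 0.31, limma adjusted p = 0.00499), and 226 ± 92.1 against 820 ± 311 TPM in wt (-1.86 ± 0.39, adjusted p = 0.0452). Rpl18 followed in 1Mek2 (248 ± 72.6 TPM against 869 ± 177; -1.82 ± 0.31, limma adjusted p = 0.00892) and Rps10 in wt (278 ± 50.3 against 860 ± 235; -1.61 ± 0.27, adjusted p = 0.0295).

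Because the Immature libraries lie with type 1 on this score, they were also set against the 2 type 1 Follicular libraries alone, as a description. All 6 Immature libraries were below both for 67 of the 78 genes, against 10.6% of 7871 genes of at least 10 TPM. All 6 Plasma libraries were below both for 72, against 44.1% of those genes, and with immunoglobulin genes removed from the total for 43, against 17.7% of 7619 genes. All 8 GC libraries were below both for 11, against 12.8%, and without GC wt replicate 4 the remaining 7 were below both for 46, against 14% of those genes. With the single type 1 library of each genotype as the sole Follicular reference, limma called 0 genes in wt Immature, 3 in 1Mek2 Immature, 0 in GC of either genotype, 0 in wt Plasma and 41 in 1Mek2 Plasma. In that fit the lone Follicular library is assumed to vary like the other group. The shares of all genes called in those fits are not given here, so the counts cannot be set against all genes. A count of 0 there does not show that the groups were alike.

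GC cells differed from Follicular cells in fewer ribosomal protein genes. Among 1Mek2 libraries 31 of 79 were lower and 0 higher, against 27% of all genes called in either direction and 9.62% called lower. Their median log2 fold change was -0.66, against 0.20 over all genes. Among wt libraries 4 of 80 were lower and 0 higher, against 22.8% of all genes called and 11.1% called lower, with a median of -0.45 against -0.10. All 4 wt calls were also 1Mek2 calls (12.9% of those). Rpl36 averaged 265 ± 43.3 TPM in 1Mek2 GC libraries and 877 ± 194 TPM in Follicular ones (n = 4 each), a log2 fold change of -1.71 ± 0.27 (limma, adjusted p = 0.0019). Rplp1 had 771, 818, 882 and 1339 TPM in 1Mek2 GC libraries and 3296, 1829, 2814 and 2775 TPM in Follicular ones. The groups did not overlap, and the log2 fold change was -1.50 ± 0.27 (limma, adjusted p = 0.00395). Rps12 was lower by -1.85 ± 0.37 (limma, adjusted p = 0.00639). In wt, Rpl18 (329 ± 147 TPM against 801 ± 205; -1.34 ± 0.34), Rpl8 (1168 ± 592 against 2192 ± 273; -1.03 ± 0.33) and Rps14 (3013 ± 834 against 5529 ± 1016; -0.90 ± 0.26) were lower, with limma adjusted p of 0.0171, 0.0424 and 0.0297. Of the wt GC libraries, replicate 4 was the highest for each of these 3. Limma called 22 genes without it, 13 without Follicular replicate 4, and 0 or 1 without any other single library. In 1Mek2 it called 11, 15 and 15 without GC replicates 1, 2 and 3, and 10 without either of Follicular replicates 3 and 4.

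In ABC libraries of wt mice some ribosomal protein genes were lower and others higher. Against wt Follicular libraries, 28 of 79 genes were lower and 5 higher, against 24.8% and 3.83% of all genes (28.6% called in all), with a median log2 fold change of -1.22 against -1.16 over all genes. The median was thus near that of all genes, while single genes ran from -5.27 to 2.10. The direction depended on the scaling. On exon reads edgeR called 2 lower and 7 higher, with a median of 0.05, and with TMM factors limma called 14 lower and 7 higher, with a median of -0.30. All 3 ABC libraries came from animals that also gave a Follicular library, and with the animal as a block 20 genes were called. Without Follicular replicate 1 or 3, limma called 17 or 20. Rpl15, of the large subunit (GRCm39 chr14:4198710-4201873, plus strand), had 1.70, 1.81 and 45.2 TPM in wt ABC libraries and 241, 248, 235 and 385 TPM in wt Follicular ones. The highest ABC library lay far below the lowest Follicular one, and the log2 fold change was -5.27 ± 1.03 (limma, adjusted p = 0.00928). Rps3, a small-subunit protein at the mRNA entry that also has a role in DNA repair, had 8.27, 45.7 and 337 TPM in ABC and 676, 734, 616 and 1323 TPM in Follicular libraries (-3.92 ± 1.04, limma adjusted p = 0.0235, but 0.101 by edgeR on exon reads). Rpl35a averaged 64.3 ± 83.7 TPM against 553 ± 81.4 TPM (-4.00 ± 0.87, limma adjusted p = 0.013, but 0.0891 by edgeR on exon reads).

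In the other direction, Rps12 had 2832, 1443 and 926 TPM in wt ABC libraries and 375, 487, 600 and 159 TPM in wt Follicular ones. It is the gene most lowered in Immature and among the most lowered in Plasma cells, yet here each ABC library exceeded every Follicular one (2.10 ± 0.60, limma adjusted p = 0.0298). Rpl38, known in mouse for its part in translating Hox mRNAs, averaged 1792 ± 190 TPM against 653 ± 339 TPM (1.62 ± 0.51, limma adjusted p = 0.0411). With the animal as a block, limma called neither Rps12, at 1.70, nor Rpl38, at 1.28. The wt ABC libraries stood apart in other ways. Exon reads were 39.9 to 50.02% of gene-span reads in them, against 61.7 to 87.3% in wt Follicular libraries, and entries that are not coding or were not matched took 10.8 to 13.95% of TPM, against 3.26 to 5.66%. Plasmacytoid dendritic cell markers summed to 3333 to 4301 TPM, against 103 to 198 TPM, and 4 of the 6 were called higher. The part of these in the ribosomal result was not tested.

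Among 1Mek2 libraries, 0 of 80 genes were called between ABC and Follicular cells by limma, 0 by edgeR and 1 by DESeq2 on deposited counts. Limma gave 0 of them an unadjusted p under 0.05, against 573 of 12458 over all genes, of which 0% were called. The median was -0.27, against -0.25 over all genes. The smallest p belonged to Rps7 (709 ± 607 TPM against 1133 ± 255), for which ABC libraries had 347, 372 and 1410 TPM. The highest is the type 1 library, replicate 3, which also had the highest Rpl4 (3167 TPM, against 365 and 315) and Rps6 (940 TPM, against 103 and 122) of its group. Rpl32 and Rps2 were next, at -0.90 and -0.68. Without replicate 3, limma called 3 genes.

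MarginalZone libraries were close to Follicular ones in wt, where limma called 0 of 81 genes, against 0.182% of all genes. None had an unadjusted p under 0.05, against 836 of 13758 over all genes, and edgeR and DESeq2 also called 0. The median was 0.00, against -0.14 over all genes, and the smallest p belonged to Rps4l, Rpl28 and Rpl13a (1.09, -1.21 and -0.59, limma adjusted p of 0.877, 0.901 and 0.901). In 1Mek2, limma called 0 of 80, against 3.64% of all genes, with 1 called by edgeR and 7 by DESeq2 on deposited counts. Of the 80, 32 had an unadjusted p under 0.05, against 2782 of 12283 over all genes. Rps6, whose product is the S6 protein phosphorylated downstream of mTOR and of ERK, had 186, 188 and 145 TPM in 1Mek2 MarginalZone libraries and 315, 892, 561 and 523 TPM in Follicular ones. All MarginalZone values were below all Follicular ones (-1.64 ± 0.41, limma adjusted p = 0.0567). Rps7 had 491, 468 and 441 TPM against 754, 1291, 1279 and 1210 TPM (-1.25 ± 0.31, adjusted p = 0.0572), and Rpl7a averaged 187 ± 42.4 against 453 ± 83.9 TPM (-1.28 ± 0.35, adjusted p = 0.0746, limma). The median of the members was -0.24 and single genes ran from -1.64 to 1.46, so members with opposite signs stood in the same libraries. Without Follicular replicate 1, limma called 9 genes. The type 1 Follicular library, replicate 2, was the highest of its group for Rps6, Rps7 and Rpl7a. The MarginalZone libraries labelled 1Mek2 are all of type 2, so the groups differ in type.

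**Figure D3:**
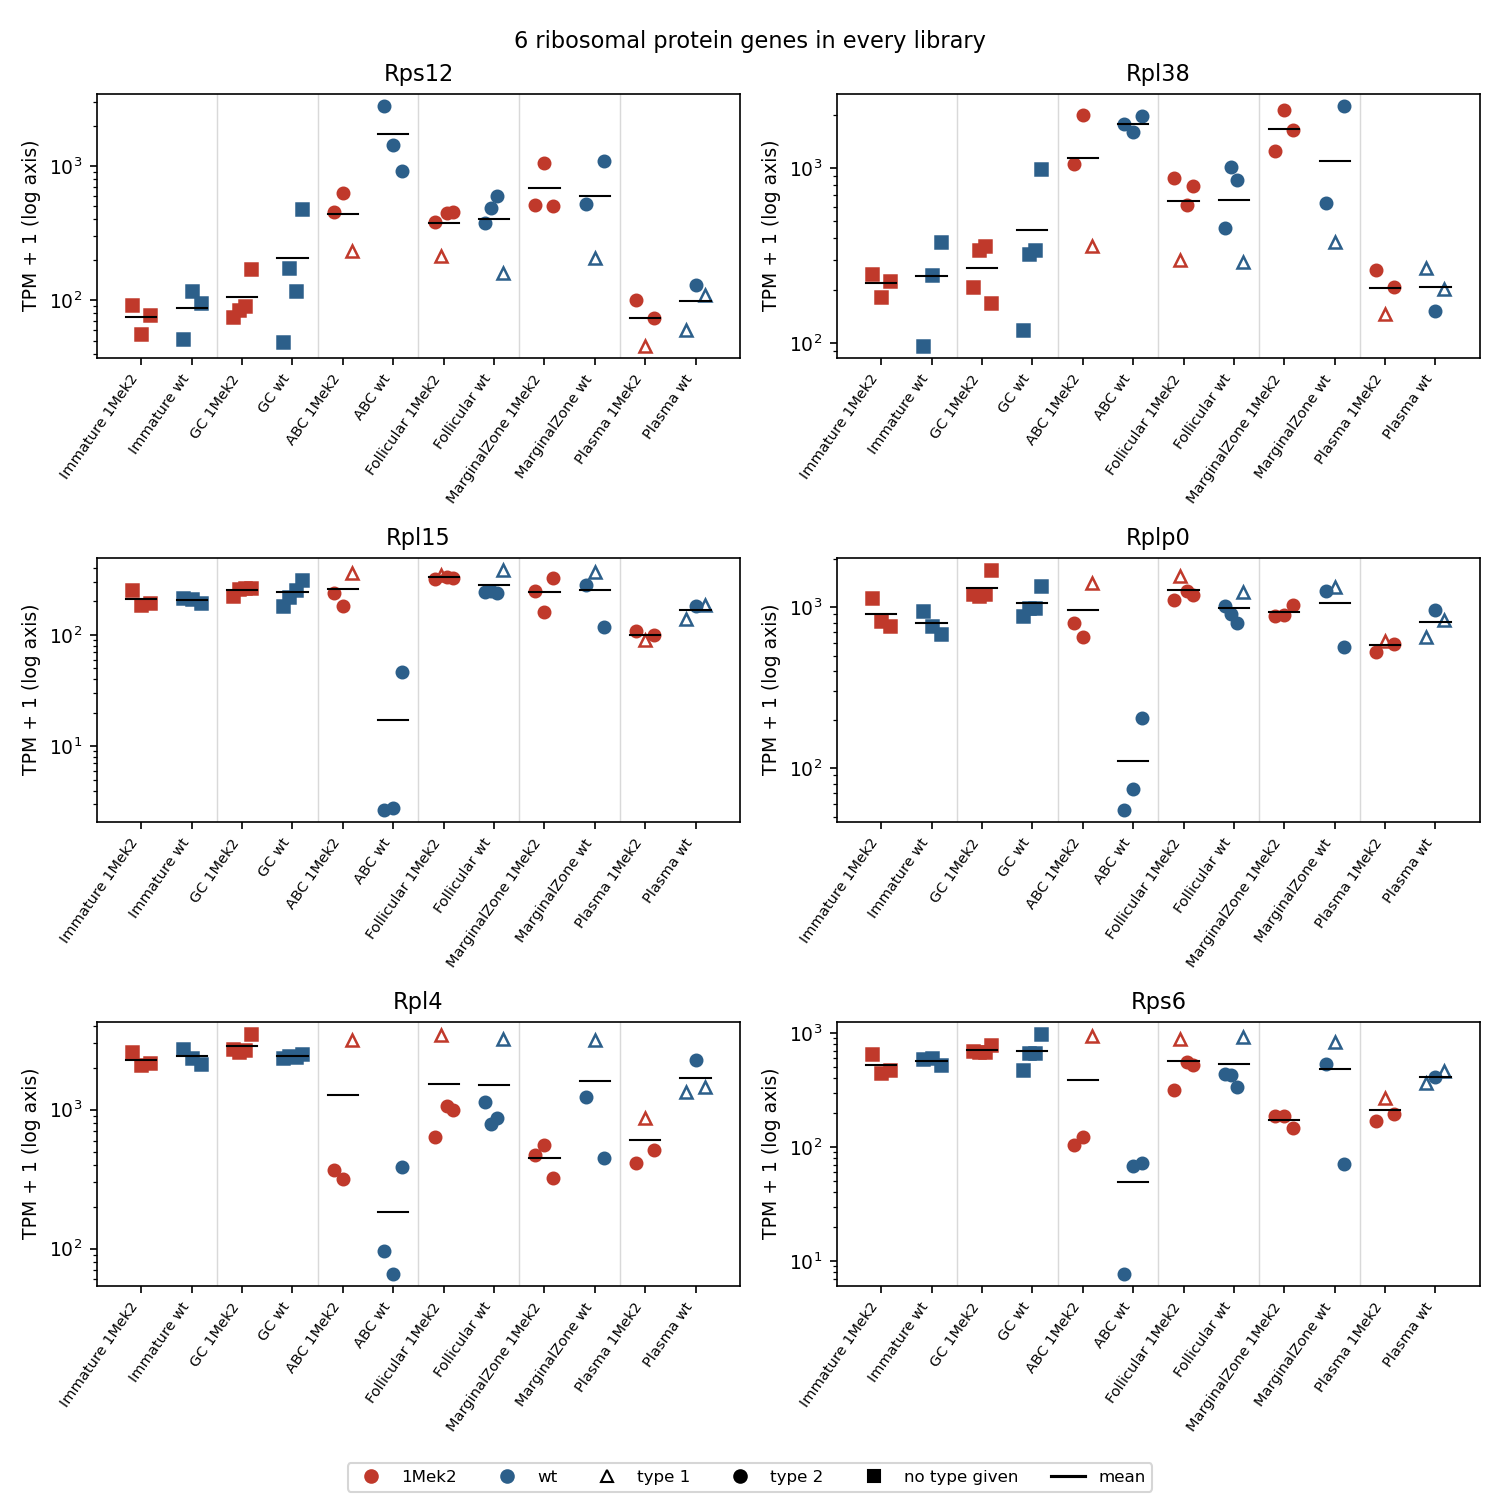
TPM + 1 of 6 ribosomal protein genes in every library on a log axis, with group means as lines, by subset and genotype label, with type 1 libraries marked. Rpl15 and Rplp0 are lowest in the wt ABC libraries (1.70 to 45.2 and 54.2 to 204 TPM), in which Rps12 reaches 2832 TPM.

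Between genotypes, Plasma cells gave the calls: 2 of 81 genes were lower in libraries labelled 1Mek2 and 0 higher, against 9.05% of all genes called and 8.39% called lower. The median was -0.66, against -0.67 over all genes, and 4 of the 81 had a positive fold change. Rpl4, of the large subunit, had 413, 875 and 515 TPM in 1Mek2 Plasma libraries and 1337, 2294 and 1463 TPM in wt ones. The groups did not overlap, and the log2 fold change was -1.53 ± 0.38 (limma, adjusted p = 0.0487). Rpl7, also of the large subunit, had 253, 371 and 276 TPM, against 616, 899 and 800 TPM in wt, again without overlap (-1.36 ± 0.32, limma adjusted p = 0.0431). Rps6 had 169, 266 and 196 TPM, against 362, 414 and 462 TPM. Immunoglobulin genes took 50.3 to 63.5% of TPM in the 1Mek2 and 27.7 to 45.7% in the wt libraries, and with them removed limma called 0 of the genes. It also called 0 without any single library but wt replicate 2. T cell markers summed to 1062 to 1731 TPM in 1Mek2 and 2755 to 6435 TPM in wt Plasma libraries, with 4 of 7 called lower, and NK cell markers to 695 to 1215 against 1144 to 3314 TPM, with 2 of 4 called lower. Their part in the result was not tested. The sign of the median also depended on the scaling: it was 0.25 with TMM factors, 0.28 by edgeR on deposited counts and 0.20 by edgeR on exon reads.

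In ABC libraries the fitted genotype differences were wide, and so was the spread between replicates. Limma called 0 of 79 genes, while edgeR on deposited counts called 0 and DESeq2 6, and 0% of all genes were called by limma. Of the 79, 21 had an unadjusted p under 0.05, against 1575 of 11063 over all genes. Without wt replicate 3, limma called 2, and with all 12 groups in 1 fit, which share 1 estimate of the spread, it called 34 higher and 2 lower. The 0% of all genes does not belong to those fits, and their shares of all genes called are not given here. The median was 1.04, against 0.47 over all genes, and 67 of 79 were positive. Rpl15 had 236, 182 and 362 TPM in 1Mek2 and 1.70, 1.81 and 45.2 TPM in wt ABC libraries. The groups were far apart, at 5.15 ± 1.32 (limma, adjusted p = 0.103). Rps3 had 824, 778 and 1471 TPM in 1Mek2, against 8.27, 45.7 and 337 TPM in wt (4.22 ± 1.16, adjusted p = 0.118, limma), and Rplp0, the stalk base, had 793, 654 and 1408 TPM, against 54.2, 72.9 and 204 TPM (3.26 ± 0.94, adjusted p = 0.131, limma). No 1Mek2 library of these 3 genes overlapped a wt one. The fold change of Rps12 was negative, with 452, 628 and 230 TPM in 1Mek2 and 2832, 1443 and 926 TPM in wt. Exon reads were 72.7 to 89.7% of gene-span reads in 1Mek2 and 39.9 to 50.02% in wt ABC libraries, and B cell markers summed to 7600 to 12199 against 2000 to 4176 TPM. Replicate 3 of the 1Mek2 ABC libraries is of type 1, while all wt ABC libraries are of type 2. The part of these differences in the ribosomal values was not tested.

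In the other 4 subsets limma called no ribosomal protein gene between genotypes, and edgeR and DESeq2 called 0 as well. In Immature cells this was 0 of 80, against 0.465% of all genes, with a median of -0.06. Of the 80, 1 gene had an unadjusted p under 0.05, against 2172 of 12677 over all genes. That gene was Rps27l, with 85.9, 76.0 and 92.6 TPM in 1Mek2 and 49.2, 53.5 and 57.9 TPM in wt. The groups did not overlap, and the log2 fold change was 0.65 ± 0.21 (limma, adjusted p = 0.17). Rplp1 (841 ± 242 TPM against 1183 ± 293; -0.50 ± 0.25, limma adjusted p = 0.355) and Rpl10a (-0.39, adjusted p = 0.405) came next. In GC cells it was 0 of 79, against 0.0662% of all genes, with a median of -0.07. Of the 79, none had an unadjusted p under 0.05, against 916 of 12092 over all genes. Rpl28 came first (20.7 ± 3.65 TPM against 13.5 ± 2.88; 0.59 ± 0.34, limma adjusted p = 0.737), then Rplp0 (0.33, adjusted p = 0.789) and Rpl4 (0.24, adjusted p = 0.814).

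In Follicular cells 0 of 80 genes were called, against 0% of all genes. Of the 80, none had an unadjusted p under 0.05, against 1606 of 12863 over all genes. The median was 0.13, against -0.40 over all genes, and 60 of 80 were positive. Rplp0 had 1100, 1567, 1250 and 1192 TPM in 1Mek2 and 1021, 902, 793 and 1247 TPM in wt, with overlap (0.37 ± 0.23, limma adjusted p = 0.522). Rps9 (0.33, limma adjusted p = 0.544) followed. In MarginalZone cells 0 of 79 were called, against 0% of all genes, with a median of -0.06 against -0.58 over all genes. Of the 79, none had an unadjusted p under 0.05, against 1319 of 11989 over all genes. Rpl4 had 471, 560 and 324 TPM in 1Mek2 and 1234, 3178 and 447 TPM in wt (-1.45 ± 0.66, limma adjusted p = 0.454). The wt library at 3178 TPM is of type 1. Rps15 (1.02, adjusted p = 0.46) and Rpl32 (2285 ± 316 TPM against 3946 ± 1303; -0.74, adjusted p = 0.464) were next.

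Whether the genotype difference varied over the subsets was tested in 1 limma fit with the animal as a random block. For 36 of 82 genes the unadjusted p was under 0.05, against 4043 of 18221 over all genes. The interaction was called for 15 of 82 genes, against 8.31% of all genes. It was strongest for Rpl15 (adjusted p = 5.99e-05), Rplp0 (0.000185), Rps9 (0.00112) and Rps3 (0.00182). For all 15, the genotype difference was largest in ABC cells, from 2.28 for Rpl19 to 5.15 for Rpl15, while in Plasma cells all 15 were negative, from -1.53 for Rpl4 to -0.04 for Rpl34. In Plasma cells 77 of the 81 ribosomal protein genes tested were negative, and the median over all genes was -0.67. The sign of the ribosomal median there depended on the scaling. Without the ABC libraries limma called 0 of the genes for the interaction, an alternative added after the values were seen. Averaged over the 6 subsets, Rpl28 (0.98 ± 0.28, adjusted p = 0.0321) and Rplp0 (0.59 ± 0.17, adjusted p = 0.0338) were higher and Rpl39l lower (-0.93 ± 0.26, adjusted p = 0.027) in 1Mek2 by limma, 3 of 82, against 5.82% of all genes. Rpl28 had 40.1, 34.3 and 19.3 TPM in 1Mek2 and 0, 1.31 and 1.38 TPM in wt ABC libraries, and without the ABC libraries the average was 0.37 for Rpl28 and 0.07 for Rplp0, neither called by limma (adjusted p of 0.409 and 0.766), while Rpl39l was called at -1.11 (adjusted p = 0.0199). Rpl39l had at most 4.65 TPM in Plasma libraries and was listed at 0 in all 4 GC libraries labelled 1Mek2, so its average rests on low values. Rpl28 is also low for these genes, with a mean of 16.6 TPM over the libraries, and another annotated gene overlaps it.

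Other genes of protein synthesis were read from lists. The lists were 28 other TOP mRNAs and translation factors, 34 ribosome biogenesis genes and 78 mitochondrial ribosomal proteins. In GC libraries labelled 1Mek2, 9 of the TOP genes were higher and 2 lower than in Follicular libraries (median 0.43), and 8 higher and 0 lower in wt (median 0.44), while no ribosomal protein gene was called higher. Of all genes, 17.4% were called higher in 1Mek2 and 11.7% in wt, with medians of 0.20 and -0.10. Hnrnpa1, a splicing factor on the list, averaged 324 ± 152 TPM in 1Mek2 GC libraries against 71.0 ± 32.0 TPM in Follicular ones (2.11 ± 0.53, limma adjusted p = 0.0161). Rrs1, a ribosome assembly factor, was higher in GC cells (2.06 ± 0.43 in 1Mek2 and 1.61 ± 0.31 in wt, limma adjusted p of 0.0074 and 0.00377) and in 1Mek2 Immature cells (2.10 ± 0.36, adjusted p = 0.00866). Rps6kb1, the gene of S6 kinase 1, was higher in GC cells by 2.71 ± 0.52 in 1Mek2 and 1.77 ± 0.42 in wt (limma adjusted p of 0.00515 and 0.0111). In Plasma libraries the calls on these lists were lower. In 1Mek2, 18 TOP genes, 22 biogenesis genes and 40 mitochondrial ribosomal protein genes were lower and 0 higher, 64.3%, 64.7% and 51.3% of the lists, against 30.5% of all genes called lower. Their medians were -1.45, -1.53 and -1.11, against -0.88 over all genes. In wt the counts were 8, 7 and 24 (28.6%, 20.6% and 30.8%), against 19.9% of all genes called lower and 30.6% in either direction, with medians of -0.43, -0.73 and -0.79 against -0.63. Set against the 19.9% of all genes called lower, the wt share of the biogenesis genes was near it. Those of the TOP and mitochondrial ribosomal protein genes were above it, though the TOP median, -0.43, was less negative than that of all genes. In wt ABC libraries, 12 TOP genes were lower and 1 higher (median -2.30), and 37 mitochondrial ribosomal protein genes were lower and 0 higher (median -2.90), which is 42.9% and 47.4% of the lists called lower, against 24.8% of all genes and a median of -1.16.

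Between genotypes in Plasma cells, 3 TOP and 2 biogenesis genes were lower in 1Mek2 and 0 higher, 10.7% and 5.88% of the lists, near the 8.39% of all genes called lower. Npm1, a chaperone of ribosome assembly, averaged 49.6 ± 4.19 TPM in 1Mek2 against 163 ± 15.3 TPM in wt (-1.69 ± 0.30, limma adjusted p = 0.0309). Ncl, the gene of nucleolin, averaged 31.7 ± 4.77 against 80.6 ± 10.01 TPM (-1.32 ± 0.33, adjusted p = 0.0475, limma). Eif4ebp1, which holds back cap-dependent translation until mTOR acts, averaged 204 ± 105 TPM in 1Mek2 and 4.48 ± 5.38 TPM in wt ABC libraries, without overlap, but its limma adjusted p was 0.0839. Genes with the TOP-like run had a median log2 fold change of -1.87 in wt ABC against Follicular libraries (29 genes), against -1.15 for the other 29 with a promoter entry and a test. In the ABC genotype comparison these medians were 1.32 and 0.86. In the other comparisons the widest gap was in wt Immature against Follicular libraries, at -0.89 and -0.66. For the 23 genes that hold snoRNA genes, against the rest, the largest gap was in 1Mek2 MarginalZone against Follicular libraries, at -0.45 against -0.12.

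**Figure D4:**
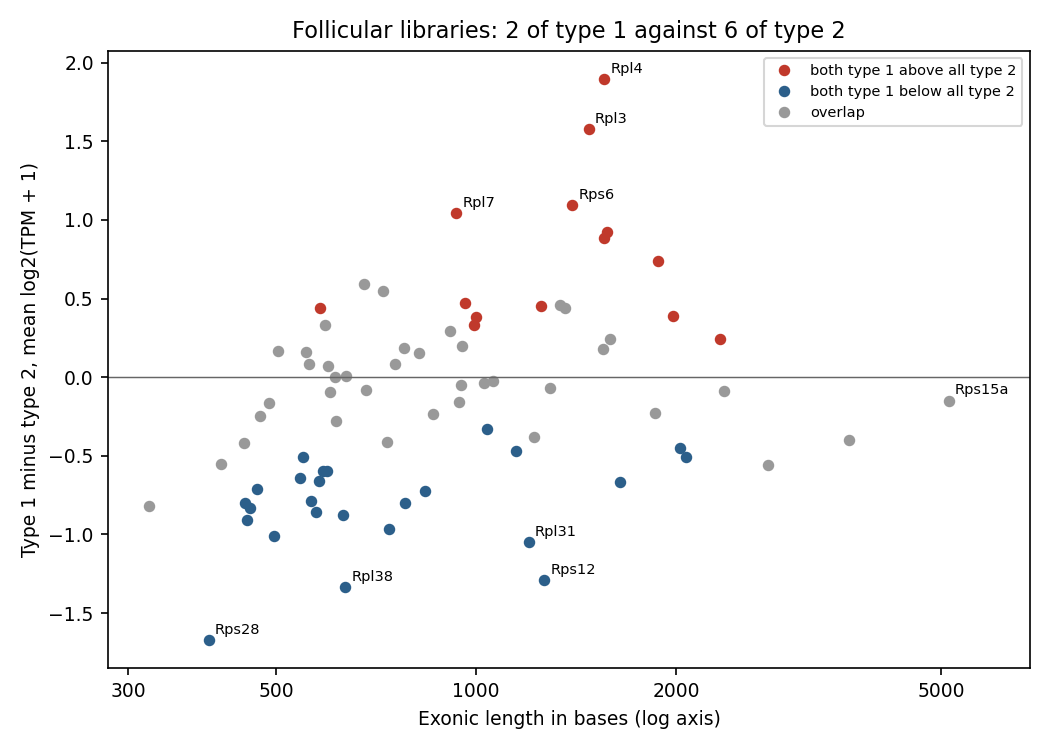
Difference in mean log2(TPM + 1), the 2 type 1 minus the 6 type 2 Follicular libraries, for each of 78 ribosomal protein genes, against exonic length in bases on a log axis. Genes run from -1.67 (Rps28) to 1.90 (Rpl4), and those higher in type 1 are mostly longer.

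The library types also separated many of the members. The types were found without the ribosomal protein genes, but with the same libraries, so what follows is a description. In Follicular cells, both type 1 libraries were above all 6 type 2 libraries for 14 of the 78 genes, below all for 25, and overlapped them for 39. Of 7871 genes of at least 10 TPM, 34.2% were above and 16.1% below, so separation by type was not particular to these genes. The direction differed: over all genes more were above than below, and among the 78 more were below. Other genes of these same libraries defined the types, so separation over all genes is partly built in. Rpl4 averaged 3352 TPM in type 1 and 915 TPM in type 2, Rpl3, which lies at the peptidyl transferase center, 1374 and 465 TPM, and Rps6 906 and 433 TPM. Rps28 averaged 231 and 782 TPM, Rpl38 293 and 767 TPM, and Rps12 186 and 457 TPM. The genes above had a median exonic length of 1435 bases and those below 597 bases, and the log2 difference had r = 0.35 and rho = 0.41 with length over the 78 genes. Rpl4, Rpl38 and Rps12 are also among the genes least like the rest, so a fold change of one of them between groups of unequal type also carries the type.

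**Figure D5:**
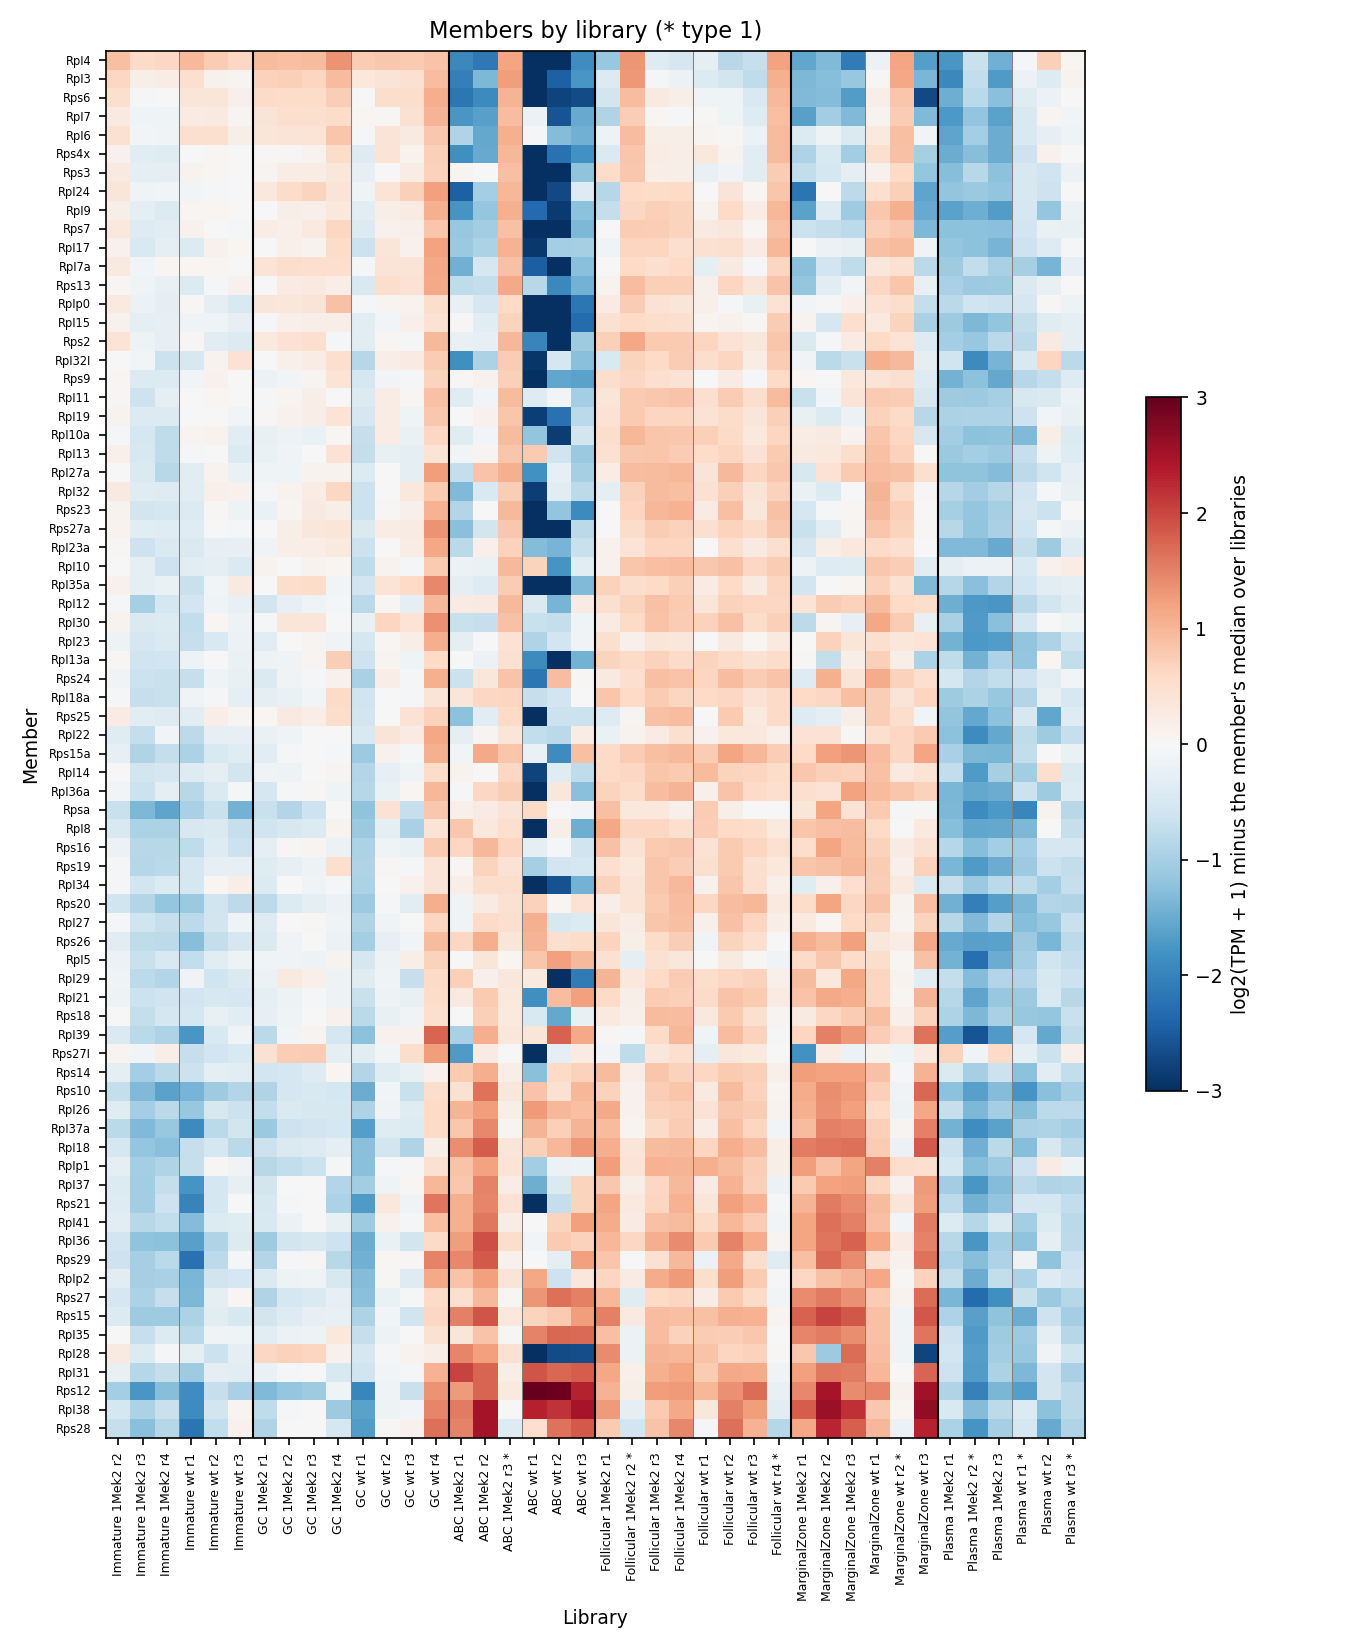
Levels of ribosomal protein genes with a mean of at least 10 TPM in each library, as log2(TPM + 1) minus the gene's median over the libraries, with libraries ordered by subset and genotype label and genes by their difference between library types. Plasma columns are low for nearly all genes, and the wt ABC columns hold both very low values (Rpl15, 1.70 TPM) and very high ones (Rps12, 2832 TPM).

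Deposited counts taken over the whole gene from start to end gave a second reading. For Rps4l and Rpl32l these counts were 0 in all 40 libraries, although Rpl32l averaged 10.9 TPM. For Rpl28, gene-span reads were 485% of exon reads, and another annotated gene overlaps it. Reads of overlapping genes cannot be told apart here.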

How the data were processed

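Per the submitters' processing notes, Trim Galore 0.6.5, STAR 2.7.11a and featureCounts 2.0.3 were used on the build GRCm39. Counts of reads for 50763 genes, taken by the authors from gene start to gene end with introns included, were deposited unnormalised. The deposited TPM cover 41069 named genes and 6 entries that name no gene, which took 0 to 5.27% of a library's TPM. TPM times exonic length gave whole multiples of 1 constant per library for 100% of values (tolerance 0.02), which returned exon reads; edgeR on these called from 0 to 3026 genes over the 16 comparisons of 2 groups. Gene-span reads per library ran from 7883989 to 34925667. Precision from depth covers counting error only, since reads carry no molecular identifiers.

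Genes with at least 1 TPM in as many libraries as the smaller group were tested on log2(TPM + 1) by limma 3.58.1 (trend and robust empirical Bayes, two-sided), within each comparison of 2 groups, with Benjamini-Hochberg adjustment over all genes at 0.05. The average genotype effect and the interaction used all 12 groups with the animal, read from library names, as a random block (consensus correlation 0.102). Alternatives used edgeR 4.0.16, DESeq2 1.42.0 and limma voom. The limma test was checked on simulated data for the genotype comparisons in Follicular and Plasma cells. Those data had no library types and the same dispersion for every gene. They therefore do not show how the test does with the spread seen here. Replicates are separate mice, so p-values measure the spread between these samples. Comparisons with Follicular in 1 genotype share those libraries. Sex was not a term: Ddx3y was at 4.04 to 33.6 TPM in the libraries of animals 562 (wt), 634 and 654 (labelled 1Mek2), and at most 0.03 TPM in the rest.

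Library types come from the first principal component of the Follicular libraries without ribosomal or immunoglobulin genes, read as 50 genes higher and 50 lower. Promoters are RefSeq's, matched by symbol for 61 genes. The genes, lists and tests were chosen with earlier results of these data known. Named genes are the stalk genes, Rpsa and Rps6, the l copies with their partners, the 5 highest and lowest in level and in likeness to the others, per comparison the 3 most changed each way (or of smallest p), and those with no deposited counts. Results of some single genes are not reported here, though counts and medians include them.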

Additional observations from a re-analysis of the deposited data

Results flagged for a closer look

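Among 200 sets of 4 libraries screened for a value far from the rest, 22 stood out. Chance alone marks about 1 independent set in 20, but these sets share the same libraries, so the 22 cannot be set against that rate. In GC libraries labelled 1Mek2, replicate 4 had the highest Rpl4 (3537 TPM, next 2714), Rplp0 (1710.0, next 1204), Rps12 (170.7, next 89.4), Rps4x (754.7, next 549), Rps6 (781.9, next 696.9) and Rpl3l (2.441, others 0), and the lowest Rpl28 (15.3, next 22.1). Replicate 1 had the lowest Rps10 (315.9, next 410.7) and the highest Rps4l (0.1422, others 0). In wt GC libraries, replicate 4 had the highest Rpl27a (340.7 TPM, next 140.9).

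In Follicular libraries labelled 1Mek2, the type 1 library, replicate 2, had the highest Rpl3 (1480.0 TPM, next 589.6), Rpl4 (3476, next 1070.0) and Rps2 (1473, next 1143). Replicate 1 had the lowest Rpl27a (166.1, next 270.8) and Rps7 (753.9, next 1210.0) and the highest Rpl8 (3339, next 2315). In wt Follicular libraries, the type 1 library, replicate 4, had the highest Rpl15 (385.5 TPM, next 248.3), Rpl3 (1268, next 449.5), Rpl4 (3228, next 1142), Rps3 (1323, next 733.8) and Rps6 (920.7, next 432.8) and the lowest Rpl35 (2921, next 4933).

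The genotype difference varied between subsets by limma's interaction test for 15 genes. Among them, the Benjamini-Hochberg adjusted p was 5.99e-05 for Rpl15, 0.000185 for Rplp0, 0.00112 for Rps9, 0.00182 for Rps3, 0.00214 for Rpl34, 0.00574 for Rpl35a, 0.00797 for Rpl28, 0.00881 for Rpl19, 0.0103 for Rpl13a and for Rps7, 0.0139 for Rps2, 0.0184 for Rps23, 0.0189 for Rps27a and 0.0406 for Rpl4.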

How the results depend on the processing

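Of 351 counts of called genes under alternatives, 228 stayed within 1.5 times the count in the report and 123 moved; of 297 medians 17 changed sign. Of 1008 values of named genes, 810 kept their side of the threshold, 170 lost it, 22 gained it and 6 changed sign. The cause was not tested unless the setting itself shows it. Shares of all genes called are not given for the alternatives, so their counts cannot be set against all genes. Depth and 3 or 4 libraries a group limit all counts, low TPM of the l copies limit theirs, and the genotype averages of Rpl28 and Rplp0, but not that of Rpl39l, lost their call without the ABC libraries. Alternatives added after the values were seen are those with coding genes alone, with a type 1 library as sole Follicular reference and without ABC libraries.

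Counts between genotypes were as follows. ABC, 0 in the report, gave 8 by edgeR without a filter, 6 by DESeq2 and 36 with all 12 groups in 1 fit. Plasma, 2 in the report, gave 1 with a pseudocount of 0.1 and 0 without a TPM filter, with TMM factors, without immunoglobulin genes, with coding genes alone, by edgeR on deposited counts with or without a filter or on exon reads, and with all 12 groups. The average, 3 in the report, gave 15 with TMM factors, 46 by voom, 47 by voom without a filter, 17 by voom on exon reads, 1 without type 1 libraries and 1 without ABC libraries. The interaction, 15 in the report, gave 5 by voom on exon reads, 5 without type 1 libraries and 0 without ABC libraries.

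Against Follicular libraries in wt, Immature (16) gave 0 without a TPM filter, 39, 68 and 57 by edgeR, edgeR without a filter and DESeq2, 0 with the type 1 reference and 5 with all 12 groups. GC (4) gave 1 without a filter, 1 with TMM factors, 7 with coding genes, 1, 13 and 2 by edgeR, edgeR without a filter and DESeq2, 0 on exon reads, 0 with the type 1 reference and 2 with all 12 groups. ABC (33) gave 18 without a filter, 21 with TMM factors, 20 by edgeR, 9 on exon reads and 55 with all 12 groups. Plasma (54) gave 10 with TMM factors, 5 without immunoglobulin genes, 3 with coding genes, 0, 0 and 7 by edgeR, edgeR without a filter and DESeq2, 3 on exon reads, 0 with the type 1 reference and 28 with all 12 groups.

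In 1Mek2, Immature (39) gave 2 without a filter, 62, 66 and 61 by edgeR, edgeR without a filter and DESeq2, 3 with the type 1 reference and 19 with all 12 groups. GC (31) gave 5 without a filter, 0 with the type 1 reference and 8 with all 12 groups. ABC (0) gave 1 by DESeq2 and 1 without type 1 libraries. MarginalZone (0) gave 1, 8 and 7 by edgeR, edgeR without a filter and DESeq2. Plasma (77) gave 17 with TMM factors, 22 without immunoglobulin genes, 20 with coding genes, 6, 3 and 9 by edgeR, edgeR without a filter and DESeq2, 9 on exon reads and 41 with the type 1 reference.

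Some medians changed sign. Between genotypes, Immature (-0.06) was 0.49, 0.52 and 0.67 by edgeR, edgeR without a filter and DESeq2, under which Rplp1 (-0.50) was 0.10, 0.15 and 0.30 and Rpl10a (-0.39) 0.18, 0.21 and 0.36. GC (-0.07) was 0.36 by edgeR without a filter and 0.33 by DESeq2. MarginalZone (-0.06) was 0.62 with TMM factors, 0.41, 0.33 and 0.44 by edgeR, edgeR without a filter and DESeq2, and 0.61 on exon reads. Plasma (-0.66) was 0.25 with TMM factors, 0.28, 0.25 and 0.27 by the same 3, and 0.20 on exon reads. ABC against Follicular in wt (-1.22) was 0.05 and MarginalZone in 1Mek2 (-0.24) was 0.16 on exon reads.

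Leaving out 1 library gave 0 to 60 calls for Immature against Follicular in wt and 1 to 58 in 1Mek2, 0 to 22 and 10 to 46 for GC, 17 to 42 and 0 to 3 for ABC, 22 to 61 and 65 to 77 for Plasma, and 0 to 9 for MarginalZone in 1Mek2. Between genotypes it gave 0 to 2 in ABC and 0 to 2 in Plasma; leaving out 1 animal gave 0 to 7 for the average and 9 to 27 for the interaction.

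Same replicate numbers in the 2 genotypes are different animals and share only a number (correlations of deviations from -0.605 to 0.227). With that replicate block, Plasma gave 0 calls, against 2 without it, and the other 5 genotype comparisons gave 0 with and without it. Where subsets share animals, the block by animal gave 20 of the wt ABC calls, against 33 without it, 78 in 1Mek2 Plasma, against 77, and 0 in ABC of 1Mek2 and MarginalZone of both. Without the animal block the average gave 4 and the interaction 14.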

Other observations

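Rps3a1 and Fau also encode ribosomal proteins, Fau as a fusion with a ubiquitin-like protein, but their names fall outside the rule. Fau averaged 447 ± 79.2 TPM in 1Mek2 Plasma libraries and 1791 ± 273 TPM in 1Mek2 Follicular ones (log2 fold change -2.003 ± 0.26, limma, Benjamini-Hochberg adjusted p = 0.000822), and 575 ± 158 against 1712 ± 179 TPM in wt (-1.61 ± 0.28, adjusted p = 0.00296). Fau was lower in all 3 Plasma libraries than in all 4 Follicular ones of the same genotype. Rps3a1 averaged 126 ± 32.4 against 379 ± 210 TPM in 1Mek2, with overlap (-1.41 ± 0.51, adjusted p = 0.053). In wt ABC libraries Rps3a1 had 5.17, 6.21 and 153 TPM while Fau had 886, 1649 and 837 TPM. Gas5, a noncoding TOP RNA that hosts snoRNAs, averaged 105 ± 25.1 TPM in 1Mek2 Plasma libraries and 618 ± 147 TPM in Follicular ones (-2.54 ± 0.33, adjusted p = 0.000773).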
